A study of Mus musculus with 40 samples.

Results

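The comparison described here sets the H3K27ac landscape of haematopoietic stem and progenitor cells of Flt3-ITD/NUP98-HOXD13 double-mutant mice beside that of wild-type mice. It uses 7 of the 40 samples of the study, 4 of the double mutant and 3 of wild type, all from HSCs and HPCs (haematopoietic stem cells and progenitors) sorted from mice aged 21 days and profiled by ChIPmentation, a chromatin immunoprecipitation in which the transposase Tn5 inserts the sequencing adapters. The authors deposited 1 pooled peak list per genotype and mark. The peaks of both H3K27ac lists were merged wherever they shared at least 1 bp, which gave 49235 regions, and each region was counted as held by the double-mutant list only, by the wild-type list only, or by both. The double mutant carries both the Flt3-ITD and the NUP98-HOXD13 allele. The single mutants, Flt3-ITD (3 samples) and NUP98-HOXD13 (4 samples), carry 1 of these alleles each and are quoted for reference. The labels leave unsaid what drives expression of the fusion, what other alleles the mice carry, and how many animals stand behind a sample. An input sample was not used here.

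A pooled list holds no value per animal. No difference between the groups was tested, therefore, and no p-value is given. Intervals after a share are 95% Wilson intervals, for counting error alone. Absence from a list means that the authors listed no peak there. Read depth is not known. The fold enrichment quoted for a peak is the authors' own value, which ranks peaks within a list. Values from different lists stand side by side without being read as a change. Fewer cells carrying a mark and less mark per cell cannot be told apart in pooled chromatin, nor can a change in the mix of sorted cells.

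H3K27ac, acetylation of lysine 27 of histone H3, marks active promoters and enhancers. FLT3 is a receptor tyrosine kinase of early haematopoietic progenitors. Its internal tandem duplication (ITD) activates the kinase without ligand and signals through STAT5, and is common in acute myeloid leukaemia. NUP98-HOXD13 joins a nucleoporin to the homeodomain of HOXD13, and fusions of this family are known to keep HOX genes and their cofactors active in myeloid progenitors. HOX proteins bind DNA together with PBX and MEIS proteins.

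At the HOX clusters the regions held by one list lay mostly in the double-mutant list. The HOXC list had 9 double-mutant-only regions and 0 wild-type-only regions, and the HOXB list had 6 and 2. For scale, 29.1% of all merged regions were in the double-mutant list only and 32.4% in the wild-type list only. In the window from 40 kb before to 60 kb after the Hoxc8 start site, the double-mutant list had 9 peaks that covered 29.5 kb and the wild-type list had 0 peaks. Around Hoxb8, within 60 kb on either side, 7 double-mutant peaks covered 23.0 kb and 3 wild-type peaks covered 2.43 kb.

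The strongest HOX region of the double-mutant-only class was an 8897 bp domain over Hoxb8 (mm10 chr11:96276796-96285692), which encodes a homeodomain factor able to hold myeloid progenitors in an immature state. Its fold enrichment was 27.5 in the double mutant and 26 in NUP98-HOXD13, and no peak was listed in wild type or in Flt3-ITD. The same domain reached the promoter of Hoxb7. At Hoxc4 and Hoxc5 a 6692 bp region (chr15:103013833-103020524) had 23.0 in the double mutant and 25.2 in NUP98-HOXD13. Promoter peaks of the double-mutant list only also stood at Hoxb6 (10.5), Hoxc8 (9.39), Hoxc6 (7.83) and Hoxb5 (2.87). Hoxb4, a gene linked to stem cell self-renewal, had weak peaks in both lists that did not overlap. The wild-type peak (3.35) lay within the promoter range of 1 kb and the double-mutant peak (3.46) just beyond it, so the class of Hoxb4 rests on that limit. With lists of equal length the HOXB counts were 6 and 0.

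The HOXA genes were marked in both lists. A single peak of the double-mutant list, 22.8 kb long and the widest of that list, reached the promoters of Hoxa3, Hoxa7, Hoxa9 and Hoxa10 with a fold enrichment of 45.5, and wild-type peaks covered 18.2 kb of the same region. The promoter peaks of wild type were 8.21 at Hoxa3, 15.6 at Hoxa7 and 13.9 at Hoxa9, and none was listed at Hoxa10. The HOXD list of 9 genes had 0 regions, and Hoxd13 itself had no promoter peak in any of the 4 genotypes.

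The HOX cofactors split between the lists. Pbx3, whose product binds DNA with HOX proteins, had a domain of 12370 bp at its promoter (chr2:34360556-34372925) with 34.6 in the double mutant, 21.6 in NUP98-HOXD13, and no peak in wild type or Flt3-ITD. In all, Pbx3 had 5 double-mutant-only regions that covered 17.6 kb and 0 wild-type-only regions. Pbx2 had 2 double-mutant-only regions, the stronger at 4.20. Meis1, which encodes the other main HOX partner, had the reverse pattern. Within 50 kb of a start site it had 0 double-mutant-only and 9 wild-type-only regions.

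Meis1 was marked in both lists, over less sequence in the double mutant. At its promoter (chr11:19010351-19020472), wild-type peaks covered 10.1 kb with a fold enrichment of up to 40.3, and double-mutant peaks covered 5.94 kb with 13. Flt3-ITD stood at 47.5 and NUP98-HOXD13 at 5.92. The strongest wild-type-only region of the genome lay 8435 bp from that start site in an intron of Meis1 (chr11:19008024-19010279), at 17.9. In Flt3-ITD this stretch belonged to the wide promoter peak. A further wild-type-only region lay beyond the end of the gene, 146442 bp from the start site (chr11:18870021-18872272), at 10.8. Weak double-mutant peaks that overlapped no wild-type peak lay 118 kb (4.44) and 135 kb (3.66) after the start site. From 40 kb before to 170 kb after the start site the wild-type list had 37 peaks over 35.4 kb and the double-mutant list had 12 peaks over 14.7 kb. Flt3-ITD had 37 peaks over 54.6 kb and NUP98-HOXD13 had 11 over 5.39 kb. Meis3 had 1 wild-type-only region, below 6 in fold enrichment.

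**Figure D1:**
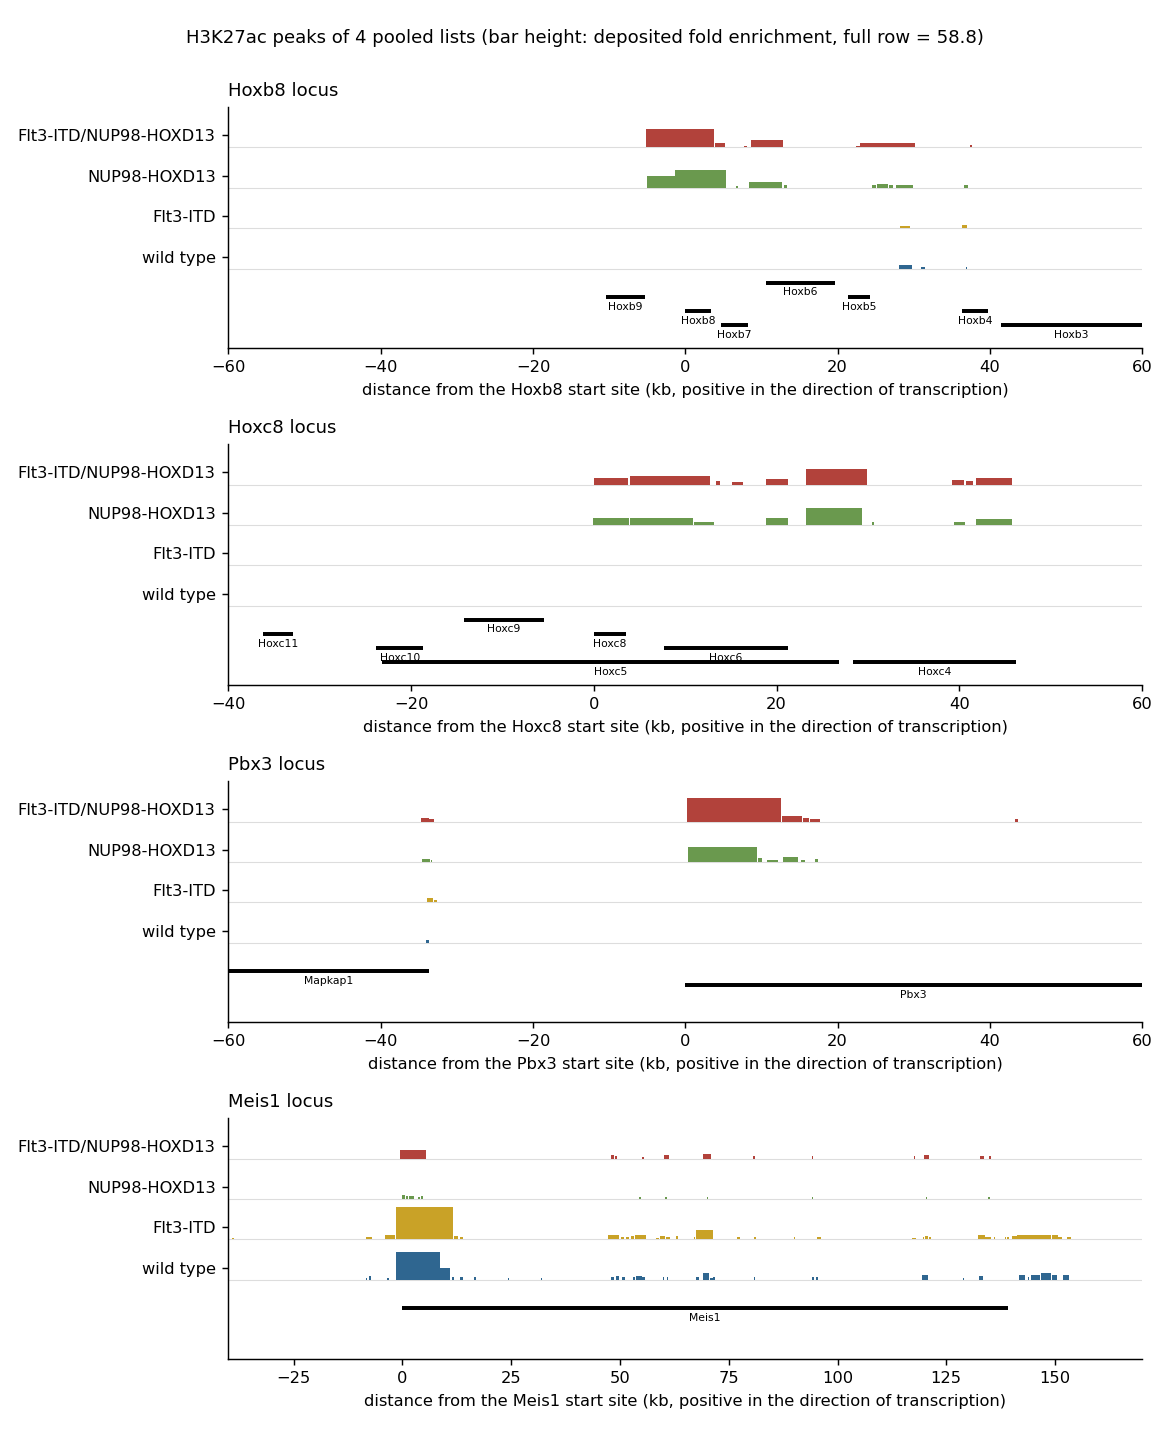
H3K27ac peaks of the wild-type, Flt3-ITD, NUP98-HOXD13 and Flt3-ITD/NUP98-HOXD13 lists around Hoxb8, Hoxc8, Pbx3 and Meis1. The horizontal axis is distance from the start site in kb, each block is a peak, its height is the deposited fold enrichment, and black bars are protein-coding genes. Wild type has 0 peaks in the Hoxc8 window and 37 in the Meis1 window, where the double mutant has 12.

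The RefSeq promoter windows (GRCm38.p6, 250 bases before to 50 after the start) are shown for Hoxb8, whose promoter is in the double-mutant list only, and for Meis1, whose promoter is in both lists and which has the strongest wild-type-only region. In the Hoxb8 window (chr11:96281655-96281954, plus strand) capitals mark 1 match to TGATNNAT, letters bound by HOX with PBX, read on either strand. In the Meis1 window (chr11:19018920-19019219, minus strand) capitals mark the RUNX letters TGTGGT and, on the other strand, the ETS letters CCGGAAGT. The RUNX letters were in 14.7% and the ETS letters in 5.35% of all windows.
Hoxb8: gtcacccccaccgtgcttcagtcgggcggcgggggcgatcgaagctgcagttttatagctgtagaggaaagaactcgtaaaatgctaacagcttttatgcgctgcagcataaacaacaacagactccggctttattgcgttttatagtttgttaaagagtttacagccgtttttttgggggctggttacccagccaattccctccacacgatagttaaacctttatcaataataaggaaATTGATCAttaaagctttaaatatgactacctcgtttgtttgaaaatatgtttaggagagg
Meis1: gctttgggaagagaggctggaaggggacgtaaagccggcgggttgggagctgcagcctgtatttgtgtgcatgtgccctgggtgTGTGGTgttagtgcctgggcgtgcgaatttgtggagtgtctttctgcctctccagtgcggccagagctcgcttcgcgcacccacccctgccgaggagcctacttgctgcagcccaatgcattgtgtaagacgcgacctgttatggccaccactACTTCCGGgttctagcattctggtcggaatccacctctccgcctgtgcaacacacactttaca
TGATNNAT, which contains TGATTNAT, was found in 7.16% of all 20122 windows. It was in 3.78% of the 2409 windows with a peak in the double-mutant list only, in 7.03% of the 128 with a peak in the wild-type list only and in 3.25% of the 6457 with both, so the Hoxb8 match describes that window alone.

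The strongest double-mutant-only regions outside the HOX clusters beside Pbx3 lay mostly within other genes. The highest of the class, 59.5, was a 15494 bp region on chr19:29731307-29746800, inside 9930021J03Rik and nearest to the start site of the melanosome gene Mlana. NUP98-HOXD13 had 46.7 there, and neither wild type nor Flt3-ITD had a peak. A second region in 9930021J03Rik had 27 in the double mutant and 26.5 in NUP98-HOXD13. A region inside Ascc3, a DNA helicase gene (chr10:50633108-50643290), had 43.6 and 29.8, and a region in an intron of Adk, which encodes adenosine kinase (chr14:21143419-21156304), had 36.5 and 25.1. Both regions of Umad1 (29.6 and 20.9) and the one in the neuronal gene Nav3 (19.4) completed this group. Flt3-ITD listed a peak of 3.65 at the second Umad1 region only.

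Arl2bp and Hist1h2br differed from these. The promoter of Arl2bp, which encodes a binding partner of the GTPase ARL2, had 16.2 in the double mutant, 11.9 in Flt3-ITD and 10.5 in NUP98-HOXD13. The region near the histone gene Hist1h2br had 15.5, 7.82 and 10.2. Histone genes have close copies, and the labels do not say how reads that map to several copies were treated. The 12 strongest double-mutant-only regions had a median width of 7167 bp and reached up to 15494 bp, and 4 of them were promoters. Among the 6 widest of the class were also regions in Phip (11576 bp, 12.5) and Zcchc7 (11005 bp, 10.7). The comparisons of the 2 single mutants with wild type use this wild-type list too, so values given for the single mutants are no independent evidence.

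The 12 strongest wild-type-only regions ran from 9.19 to 17.9 with a median width of 1683 bp, and 3 of the 6 widest were at Meis1. Robo4, a receptor gene of endothelium and haematopoietic stem cells, had a promoter peak of 10.2 in wild type (chr9:37401485-37403236), 11.4 in Flt3-ITD and 4.70 in NUP98-HOXD13, and none in the double mutant. Rnf125, which encodes a ubiquitin ligase, had 10.3 in wild type and 9.91 in Flt3-ITD. Intron regions were listed in Ap3b1, which encodes a subunit of the AP-3 vesicle adaptor (9.52 in wild type, 10.1 in Flt3-ITD), and in Gfod1 (9.28 and 3.67). Exon-overlapping regions were listed in the actin regulator genes Coro2b (9.94) and Ccdc88a (9.61), in Cage1 (9.28) and in Gcnt2 (9.19). The last of the 12 were near 1700016K19Rik (11.3) and 322254 bp from Ptprc (9.28), the gene of the leukocyte antigen CD45.

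The Robo4 window (chr9:37401722-37402021, plus strand) is shown as a wild-type-only promoter, and it held none of the 12 sets of letters searched.
Robo4: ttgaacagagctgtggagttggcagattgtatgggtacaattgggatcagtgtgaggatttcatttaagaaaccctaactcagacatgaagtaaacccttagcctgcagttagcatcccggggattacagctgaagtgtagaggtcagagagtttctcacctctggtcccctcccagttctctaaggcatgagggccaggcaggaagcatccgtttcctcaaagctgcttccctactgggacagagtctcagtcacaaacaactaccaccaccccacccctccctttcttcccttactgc

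**Figure D2:**
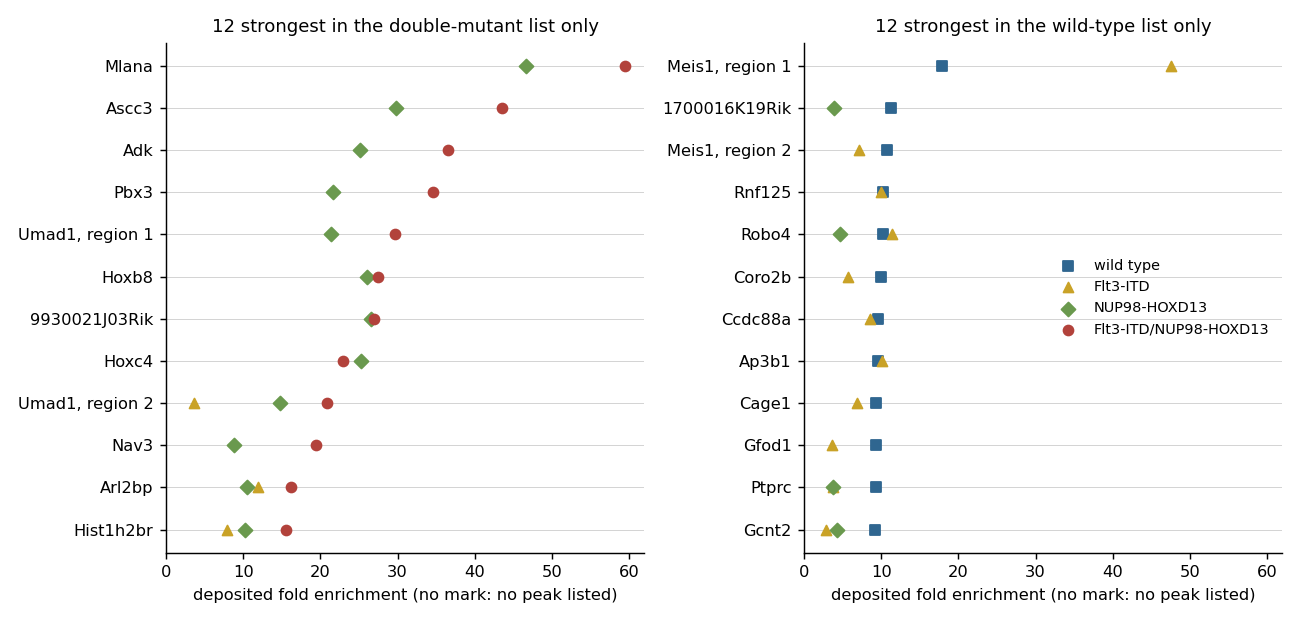
Deposited fold enrichment (horizontal axis) of the 12 strongest double-mutant-only regions (left) and the 12 strongest wild-type-only regions (right) in 4 lists, with no symbol where a list has no peak. The left panel runs from 15.5 to 59.5 in the double mutant, and the right from 9.19 to 17.9 in wild type.

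Mecom shows that both directions can occur within 1 gene. It encodes EVI1, a zinc finger factor of stem cell self-renewal, and had 4 double-mutant-only and 18 wild-type-only regions. In one of its introns (chr3:30454752-30457552) wild-type peaks covered 2.80 kb at 13.2 and double-mutant peaks covered 0.466 kb at 4.57. In another (chr3:30101075-30110505) double-mutant peaks covered 9.43 kb at 21.1 and wild-type peaks 0.682 kb at 4.01. NUP98-HOXD13 had 15.6 at the latter and Flt3-ITD had no peak. The Mecom promoter stood at 12.7 in the double mutant and 13 in wild type.

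Stem cell transcription factor genes as a list had 70 double-mutant-only and 90 wild-type-only regions. The double-mutant share of one-list regions was 43.8% (36.3 to 51.5%), beside 51.8% (51.1 to 52.5%) over all regions within 50 kb of a start site, where 29.7% of 36688 regions were double-mutant-only and 27.6% wild-type-only. Fli1, an ETS factor gene, had 1 and 19 regions, although double-mutant peaks covered 20 kb there and wild-type peaks 18.48 kb. Hlf, a leucine zipper factor gene of stem cells, had 2 and 13 regions, and Nkx2-3, a homeobox gene, 0 and 5. The opposite balance was seen at Runx1 (17 and 7) and Etv6 (16 and 2), both genes of core haematopoietic factors, and at Myb (9 and 6). No member had a promoter peak in the double-mutant list only, beside 7.3% of all protein-coding genes. In the wild-type list only there were 3, beside 1.15% of all genes, namely Nkx2-3 (8.62), Mllt3 (5.97), whose product helps to maintain stem cells, and Prdm16 (4.34).

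By length of sequence the balance over all genes differed from that by number of regions. Double-mutant peaks covered more sequence than wild-type peaks at 83.0% of the 11868 genes with a region, and wild-type peaks covered more at 17.0%. An excess of at least 2 kb was found for wild type at 39 genes and for the double mutant at 2106. The genes with the largest wild-type excess, chosen after their values were seen, were Meis1 (16.5 against 7.10 kb), Nkx2-3 (5.88 against 0.39 kb), Hlf (10.7 against 6.29 kb), the phosphodiesterase gene Pde4d (19.8 against 16.0 kb) and the early response gene Ier3 (5.73 against 1.99 kb). Tfec, Gata3 and Gfi1 followed, the last 2 encoding lineage factors of T cells and granulocytes. Of the 18 stem cell factor genes, 5 had more in wild type (Hlf, Nkx2-3, Mllt3, Prdm16 and Tal1). Double-mutant peaks covered more at 12, among them Fli1 and Runx1, the latter at 46.2 against 22.5 kb.

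Stem and progenitor surface genes had 25 and 23 one-list regions. Among peaks with a fold enrichment of at least 5 these became 1 and 14, or 6.67% beside 55.7% over all regions, so the balance did not hold at that threshold. Robo4, Esam and Slamf1, all known from stem cells, had 0 and 2 each. The progenitor marker Cd27 had 0 and 4, although double-mutant peaks covered 8.74 kb there and wild-type peaks 7.23 kb. Kit, the stem cell factor receptor, had 6 and 2, and the chemokine receptor gene Cxcr4 had 4 and 2. Ly6a, which encodes the sorting marker SCA-1, had 2 and 0, with a promoter peak of 3.52 in the double mutant only. Flt3 itself had 5 and 3, and its promoter peak was 25.0 in the double mutant and 23.5 in wild type. Cd34, a further stem and progenitor marker gene, had promoter peaks of 4.59 and 7.64.

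STAT5 target genes leaned towards the double mutant. They had 42 double-mutant-only and 14 wild-type-only regions, a share of 75.0% (62.3 to 84.5%), and 12 of 18 members had more of the former. Ccnd3, which encodes cyclin D3, had 14 and 3, and the rest of the list 28 and 11. The cytokine feedback inhibitor genes Cish and Socs2 had 4 and 0 and 2 and 0. The ubiquitous genes, chosen for steady expression in every tissue, had 19 and 4, a share of 82.6% (62.9 to 93.0%), of which 9 and 0 were at Ywhaz, so the count of the STAT5 list is not read as particular to it. Peaks of both lists stood at all 14 ubiquitous promoters, with a median fold enrichment of 17.0 in the double mutant and 11.9 in wild type.

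At promoters, the ubiquitous genes had 0 in one list only. The STAT5 list had 4 of 18 promoters in the double-mutant list only and 0 in the wild-type list only, while over all 21840 protein-coding genes these were 7.3% and 1.15%. Of its 14 members with a promoter peak in the double mutant, 4 had none in wild type, beside 16.0% of all 9940 such genes. With so few members the count is not read as particular to the list. The 4 were Socs2 (12 in the double mutant, 15.4 in Flt3-ITD, 3.75 in NUP98-HOXD13), the survival gene Bcl2l1 (8.56, 7.21 and 5.59), Cish (6.07, 5.84 and 3.68) and the cytokine gene Lif (3.0, and no peak in either single mutant). Promoter peaks of both lists stood at Pim1, a survival kinase gene (67.8 in the double mutant, 28.5 in wild type), Mcl1 (30.9 and 13.6) and Ccnd2 (9.80 and 5.11). The values were 15.5 and 20.8 at Bcl2 and 13.7 and 16.5 at Bcl6.

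The Cish window (chr9:107296409-107296708, plus strand) is shown because it has a peak in the double-mutant list only and holds 2 copies of the STAT letters TTCNNNGAA, in capitals.
Cish: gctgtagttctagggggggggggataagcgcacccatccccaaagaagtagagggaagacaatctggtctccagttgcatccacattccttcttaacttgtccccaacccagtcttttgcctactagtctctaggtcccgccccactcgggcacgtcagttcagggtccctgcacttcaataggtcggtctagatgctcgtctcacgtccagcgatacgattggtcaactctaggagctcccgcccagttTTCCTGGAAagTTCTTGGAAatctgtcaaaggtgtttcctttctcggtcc
These letters were found in 7.73% of all windows and in 5.81% of the windows in the double-mutant list only. Of the 5 windows of STAT5 targets in that class, Cish was the 1 that held them.

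Interferon response genes had 34 double-mutant-only and 18 wild-type-only regions, a share of 65.4% (51.8 to 76.9%). Its interval reaches down to the 51.8% over all regions, and the ubiquitous genes stood at 82.6%, so the count is not read as particular to interferon genes. All 33 annotated members had a promoter peak in the double-mutant list, and 27 had one in the wild-type list. Of all 9940 genes with a promoter peak in the double mutant, 16.0% had none in wild type, so 6 of 33 is near the background. The 6 were Eif2ak2, which encodes the RNA-sensing kinase PKR (13.8), the GTPase gene Igtp (11.5), the 2′-5′ oligoadenylate synthetase genes Oas2 (10.2) and Oas1a (4.37), and the RNA-binding effector genes Ifit2 (9.65) and Ifit3 (8.87). In NUP98-HOXD13 the promoter values were 7.85 at Eif2ak2, 8.18 at Igtp, 6.27 at Oas2, 6.01 at Ifit2 and 6.65 at Ifit3, with no peak at Oas1a. In Flt3-ITD they were 7.08, 9.09 and 3.53 at Eif2ak2, Igtp and Oas2 and 5.59 at Ifit3, and no peak was listed at Ifit2 or Oas1a. The Ifit, Oas and GTPase families hold close copies, and reads shared between copies cannot be told apart here.

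Regulators of the response were marked in both lists, among them Irf9 (25.3 in the double mutant, 11.6 in wild type), Irf1 (12.2 and 6.25), Irf7 (9.95 and 6.81) and Stat2 (7.96 and 4.34). The effector genes Isg15 (9.39 and 9.94) and Ifit1 (4.35 and 6.25) were in both lists too. The antiviral gene Rsad2 had the most one-list regions of the list, 4 and 1, and without it 30 and 17 remained.

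The windows of Ifit3 (chr19:34583279-34583578, plus strand), Eif2ak2 (chr17:78882523-78882822, minus strand) and Igtp (chr11:58199306-58199605, plus strand) are shown because each is in the double-mutant list only and holds the IRF letters GAAANNGAA, in capitals, on either strand. Ifit3 holds 3 copies, Eif2ak2 a pair that overlap, and Igtp 1.
Ifit3: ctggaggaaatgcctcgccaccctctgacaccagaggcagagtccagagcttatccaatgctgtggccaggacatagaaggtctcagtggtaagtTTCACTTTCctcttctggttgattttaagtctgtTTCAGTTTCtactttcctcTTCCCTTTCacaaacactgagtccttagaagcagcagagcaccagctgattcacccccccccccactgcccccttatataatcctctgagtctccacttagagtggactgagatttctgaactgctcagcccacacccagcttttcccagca
Eif2ak2: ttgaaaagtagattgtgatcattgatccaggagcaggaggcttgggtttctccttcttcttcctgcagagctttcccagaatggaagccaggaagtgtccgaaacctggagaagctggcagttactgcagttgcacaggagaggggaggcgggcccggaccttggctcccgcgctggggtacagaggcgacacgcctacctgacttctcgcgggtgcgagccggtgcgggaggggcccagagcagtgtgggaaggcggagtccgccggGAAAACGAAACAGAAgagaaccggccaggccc
Igtp: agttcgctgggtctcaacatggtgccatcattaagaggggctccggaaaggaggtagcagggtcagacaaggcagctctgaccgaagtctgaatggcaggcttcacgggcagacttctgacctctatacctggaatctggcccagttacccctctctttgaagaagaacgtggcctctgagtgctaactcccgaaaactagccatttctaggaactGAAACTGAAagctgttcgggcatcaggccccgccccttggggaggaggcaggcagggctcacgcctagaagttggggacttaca
Of 6 double-mutant-only windows of interferon genes, 4 held these letters, as did 14 of 26 windows with a peak in both lists. Over all windows the share was 8.20%, and over all double-mutant-only windows 6.27% (5.37 to 7.31%), so the letters were no more frequent in the class than in all windows.

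G1 regulators owed their balance to a single gene. They had 28 and 15 one-list regions, of which Cdk6, a cyclin D kinase gene, gave 18 and 4, and the rest of the list 10 and 11. The Cdk6 promoter stood at 20.3 in the double mutant and 5.54 in wild type, and peaks at the gene covered 23.6 and 6.0 kb. ERK feedback and early response genes had 39 and 49, a share of 44.3% (34.4 to 54.7%), holding the share over all regions. Double-mutant peaks covered more sequence at 19 of these genes and wild-type peaks at 3. Egr3 (6 and 1) and Dusp5 (5 and 3) stood on one side by count. Ier3 (0 and 8), Dusp6 (2 and 5) and Spred1 (4 and 8) stood on the other.

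Granulocyte genes had 20 and 18 one-list regions. A promoter peak stood at 7 of 19 members in the double-mutant list and at 2 in the wild-type list, the 2 being Mpo (7.31 and 5.41), which encodes myeloperoxidase, and Gfi1 (10.3 and 7.64). Over all protein-coding genes 7.3% had a promoter peak in the double-mutant list only. The 5 granulocyte genes of that class were Prtn3 (11.1), Ctsg (3.71), Csf3r (4.82), Cebpe (4.18) and Cxcr2 (3.66). Prtn3 and Ctsg encode proteases, Csf3r the granulocyte colony-stimulating factor receptor, Cebpe a late granulocyte factor and Cxcr2 a chemokine receptor. The double-mutant-only regions given to Prtn3 reached 4.83, so its promoter peak of 11.1 was not among them, and 1 region there was in both lists. Gfi1 had 1 and 8 regions, and the remaining members 19 and 10. Monocyte and macrophage genes had 15 and 23, a share of 39.5% (25.6 to 55.3%), an interval that holds the share over all regions. Double-mutant peaks covered more sequence at 11 members and wild-type peaks at 3. Of the 18 members, 10 had a promoter peak in the double-mutant list and 8 in the wild-type list. Promoter peaks were 2.26 in the double mutant and 8.53 in wild type at the lysozyme gene Lyz2, and 7.31 and 3.35 at Klf4. No promoter peak of either list stood at Elane, Cebpa, Csf1r or Irf8.

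Erythroid genes had 6 and 15 regions, 28.6% (13.8 to 49.96%), of which Car2, which encodes carbonic anhydrase 2, had 2 and 9. Without Car2 the list had 4 and 6, 40% (16.8 to 68.7%), an interval that holds the share over all regions. Zfpm1, the gene of a GATA1 cofactor, had 4 and 2 and a promoter peak in the double-mutant list only (5.22). T and NK cell genes had 9 and 21, 30% (16.7 to 47.9%), with Gata3 at 0 and 7 and Tcf7 and Prf1 at 0 and 3 each. Without Gata3 they had 9 and 14, 39.1% (22.2 to 59.2%). By length of sequence the double mutant covered more in both lists, 31.6 against 26.9 kb at erythroid genes and 29.9 against 25.7 kb at T and NK cell genes. In lists of equal length the T and NK cell counts became 11 and 7, 61.1% beside 66.6% over all regions, so the excess of wild-type-only regions was lost. B lymphoid genes (9 and 11), megakaryocyte and platelet genes (12 and 14), dendritic cell genes (13 and 18), mast cell, basophil and eosinophil genes (13 and 10), and endothelial and stromal genes (7 and 11) had intervals that held the share over all regions.

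The marker lists also describe the sorted cells. Of 16 genes known to be silent in blood, 0 had a promoter peak in either list. In the double-mutant and wild-type lists, T and NK cell genes had 3 and 3 of 18 and erythroid genes 4 and 3 of 18. Endothelial and stromal genes had 3 and 2 of 12, and dendritic cell genes 4 and 2 of 16. Mast cell, basophil and eosinophil genes had 4 and 2 of 15, and granulocyte genes 7 and 2 of 19. Monocyte and macrophage genes had 10 and 8 of 18, B lymphoid genes 7 and 6 of 15, and megakaryocyte and platelet genes 7 and 7 of 16. Stem and progenitor surface genes had 10 and 9 of 16. Over all 21840 protein-coding genes the counts were 9940 and 8598. Neither list had a promoter peak at the Y-linked genes Ddx3y, Uty, Kdm5d or Eif2s3y. The part that a different mix of sorted cells may have in the differences was not tested.

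**Figure D3:**
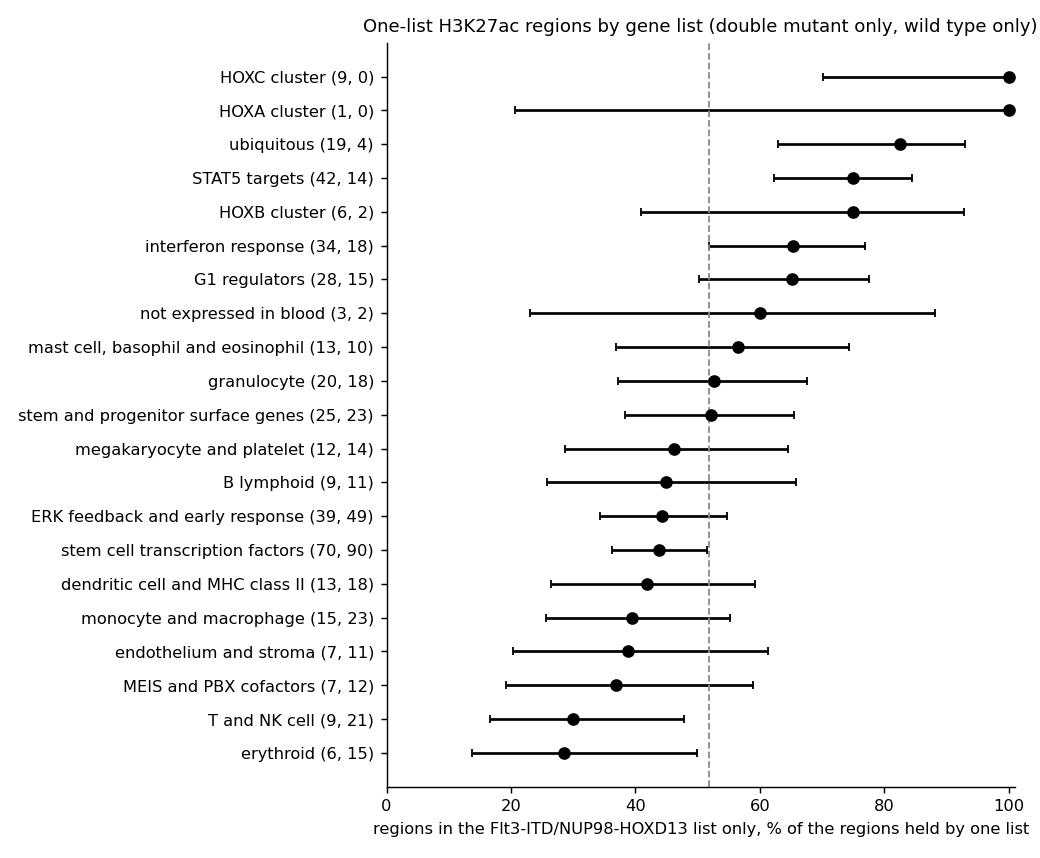
Share of one-list H3K27ac regions that are in the double-mutant list only (horizontal axis, %), by gene list, with both counts in parentheses. Bars are 95% Wilson intervals and the dashed line is the share over all regions near genes, 51.8%. STAT5 targets (75.0%) and ubiquitous genes (82.6%) lie to the right of it, erythroid (28.6%) and T and NK cell genes (30%) to the left.

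By number of regions, the genes with the most double-mutant-only regions were Foxp1 (41 and 22), which encodes a forkhead factor, Cd47 (29 and 2), which encodes the signal that restrains phagocytosis, Fam107b (21 and 13), Baz2b (19 and 5), the phosphatase gene Ptpre (19 and 7), Cdk6, Mef2c (18 and 5) and Runx1. Those with the most wild-type-only regions were Sgms1 (11 and 27), a sphingomyelin synthase gene, Foxp1, Fli1, Pde4d (3 and 19), Mecom, Map7 (10 and 15), Itga9 (4 and 14) and Fam107b. By length of sequence wild-type peaks covered more at Pde4d alone of these. Double-mutant peaks covered more at all the others, with Sgms1 at 38.82 against 32.15 kb. Foxp1 and Fam107b stand in both groups, and both are rich in regions. No one-list region of these genes was above 7 in fold enrichment.

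Over all genes, promoter peaks of the double-mutant list only outnumbered those of the wild-type list only. A promoter peak stood at 9940 genes in the double mutant and 8598 in wild type, with 1594 in the double-mutant list only and 252 in the wild-type list only. The strongest double-mutant-only promoters beside the HOX genes and Pbx3 were Gm26602 (26.7), Frmd8 (17.7), E130218I03Rik (17.6) and Zfpm2 (16.9), a GATA cofactor gene. Gm26602 had 30.7 in Flt3-ITD and 24.6 in NUP98-HOXD13. This class means no wild-type peak within 1 kb of a start site, and each of these peaks overlapped a wild-type peak further off. In the Zfpm2 region wild-type peaks covered 0.239 kb at 3.35. The strongest wild-type-only promoters after Rnf125 and Robo4 were Lmo7 (8.98), Nkx2-3 (8.62), Rfx8 (7.97), Fam110b (7.97) and the leukotriene receptor gene Cysltr2 (7.95), followed by Art4, Dpp4 and Slc13a1. Median fold enrichment was 4.83 for double-mutant-only promoters and 3.70 for wild-type-only promoters, while promoters in both lists had 12.6 in the double mutant and 7.65 in wild type.

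The promoters of the classes differed in base composition. RefSeq windows in the double-mutant list only held a median of 21 CpG, close to the 23 of windows in both lists, while those in the wild-type list only held 12.5 and those in neither list 5. The ETS letters CCGGAAGT were in 7.18% (6.22 to 8.28%) of the double-mutant-only windows, 11.6% (10.8 to 12.4%) of those in both lists and 1.34% of those in neither, beside 5.35% of all windows. In CpG-rich windows alone, those with at least 14 CpG, the shares were 7.78% for double-mutant-only windows and 8.87% for all. In the remaining, CpG-poor windows they were 5.26% (3.71 to 7.41%) for double-mutant-only windows and 1.76% for all. There the letters were also in 6.2% of windows in both lists and 7.04% of the 71 wild-type-only windows.

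Over the genome, 14343 regions were in the double-mutant list only, 43.1% (42.6 to 43.6%) of its regions, and 15950 were in the wild-type list only, 45.7% (45.2 to 46.2%) of its regions. The double-mutant share of the 30293 one-list regions was 47.3% (46.8 to 47.9%). It became 62.5% with lists of equal length, 78.1% with −log10 q of at least 5 and 88.3% with peaks of at least 500 bp, so the overall balance turned with the settings. The lists themselves differ: wild type has 43363 peaks of median width 389 bp over 28.0 Mb, and the double mutant 33935 peaks of median width 888 bp over 44.6 Mb. In 16586 of the 18942 shared regions the double-mutant peaks covered more sequence, and in 2343 (12.4%) the wild-type peaks did. The part of library quality or depth in this was not tested.

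Regions held by one list were mostly weak. In the lowest decile of the double-mutant regions by fold enrichment 78.6% were absent from wild type, and in the top decile 12 regions were, or 0.36%. For wild type these were 84.0% and 4 regions, 0.115%. Those 12 are the regions from Mlana to Hist1h2br named above, and the 4 are the pair at Meis1, the one near 1700016K19Rik and the Rnf125 promoter. Within 500 bp of a peak of the other list lay 18.1% of the double-mutant-only and 16.5% of the wild-type-only regions. Promoters made up 15.7% of the double-mutant-only regions, 4.21% of the wild-type-only regions and 41.2% of the shared ones.

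**Figure D4:**
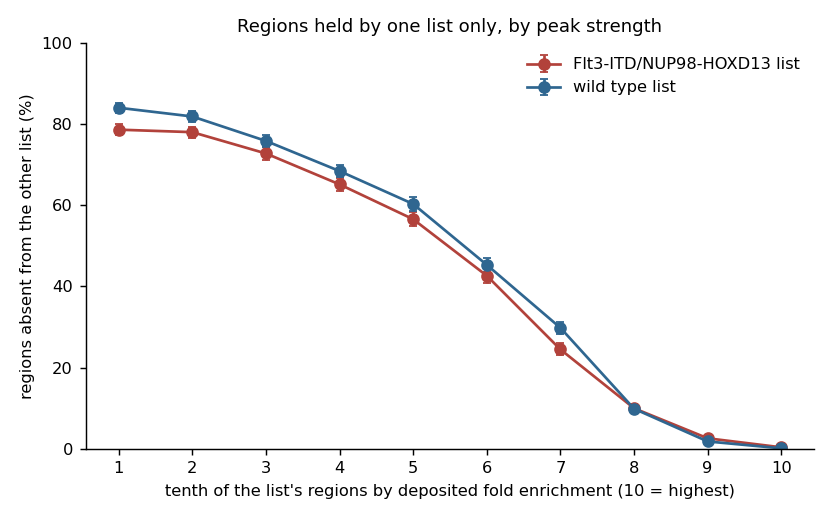
Share of each list's regions that the other list lacks (vertical axis, %), by decile of the list's regions in deposited fold enrichment (horizontal axis, 10 is the highest). Error bars are 95% Wilson intervals. The share falls from 78.6% to 0.36% in the double mutant and from 84.0% to 0.115% in wild type.

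H3K4me1, the mark of enhancers whether active or primed, was listed separately for both genotypes and was not used to define the regions. Of the 12089 distal double-mutant-only regions, 64.7% (63.9 to 65.6%) had an H3K4me1 peak in the double mutant and 42.6% (41.7 to 43.5%) in wild type. Of the 15279 distal wild-type-only regions, 36.6% (35.9 to 37.4%) had one in the double mutant and 29.5% (28.8 to 30.2%) in wild type. H3K4me1 of the double-mutant list was thus the more frequent in both classes. The double-mutant H3K4me1 list is also the longer, with 95907 peaks over 55.7 Mb against 73506 over 35.2 Mb, and it was the more frequent at shared distal regions too, 84.8% against 71.0%.

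Among regions with H3K4me1 in just 1 of the lists, the double mutant held 83.4% (82.3 to 84.6%) at double-mutant-only regions, 64.6% (63.0 to 66.1%) at wild-type-only regions and 81.8% (80.2 to 83.3%) at shared ones. The share at double-mutant-only regions thus lay close to that at shared regions, and the share at wild-type-only regions was lower than both. No H3K4me1 peak of either list stood at the Hoxb8 domain, whereas the Pbx3 domain had 6.15 in the double mutant and 3.93 in wild type. The regions in Ascc3 (6.02) and Adk (7.86) had H3K4me1 in the double mutant only, and the Meis1 intron region (5.04) in wild type only. The wild-type-only region near 1700016K19Rik had it in the double mutant only (5.32), and the one 146442 bp from the Meis1 start site in neither. Of the 12 strongest double-mutant-only regions, 10 had H3K4me1 in the double mutant and 5 in wild type. Of the 12 strongest wild-type-only regions, 4 had it in the double mutant and 6 in wild type.

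**Figure D5:**
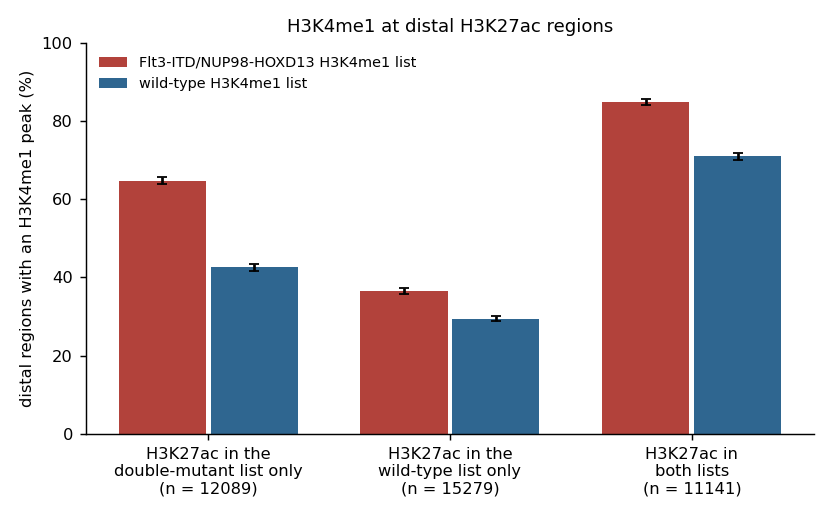
Percentage of distal H3K27ac regions (more than 1 kb from a start site) with an H3K4me1 peak in the double-mutant list or the wild-type list, by H3K27ac class. Bars show the share with its 95% Wilson interval. The double-mutant H3K4me1 list has the higher share in each class, 64.7% against 42.6% in double-mutant-only regions and 36.6% against 29.5% in wild-type-only regions.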

How the data were processed

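Wild-type (3 samples) and Flt3-ITD/NUP98-HOXD13 (4 samples) H3K27ac lists were compared, with the H3K4me1 lists of both genotypes and the H3K27ac lists of the single mutants beside them. The submitters' processing notes name BWA, MACS2 and mm10 (GRCm38); versions and thresholds are not stated there. The deposited lists, 12 in all of which 6 were used, are pooled per group. Each deposited peak carries a score, a ratio (the fold enrichment over control), −log10 p and −log10 q of the authors' caller, and a summit position (other). No read depth is stated per the labels, so precision is unknown.

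Peaks were merged at 1 bp overlap (Python 3.11.15, pandas 2.3.3, numpy 2.4.6, scipy 1.17.1). Protein-coding start sites (41421, of 21840 genes) came from GENCODE mouse release 21, basic set. Regions went to the nearest start site within 50 kb, and promoters were the range within 1 kb. The members and the 22 gene lists (349 entries, of which 1, Mx2, is not in the annotation) were chosen with earlier results of these data known. The deposited −log10 p ordered peaks where lists were shortened. Motifs were counted in RefSeq promoter windows of 300 bases (16495 genes matched), since sequence at peak summits could not be read without a genome. The 12 sets of letters, searched on both strands, were TGATTNAT and TGATNNAT (HOX with PBX), TGACAG (MEIS), TGTGGT (RUNX), TTCNNNGAA (STAT), GAAANNGAA (IRF), AGATAA (for GATA factors), TTGCNNAA (CEBP), TGANTCA (AP-1), GAGGAAGT (PU.1), CCGGAAGT (ETS) and CACGTG (E-box). Merging and classing were tested on simulated data, a copy of the wild-type list with peaks added and removed. The genes named were those of the 12 strongest one-list regions each way, the 10 strongest one-list promoters each way, up to 4 members per list with the most one-list regions, the 8 genes with the most regions each way, the 6 widest regions each way, and Flt3, Runx1, Nup98, Hoxd13 and the HOX, MEIS and PBX genes, of which some named by the rule are not reported here. Other list members are named by their promoter peaks or coverage and were chosen after values were seen.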

Additional observations from a re-analysis of the deposited data

How the results depend on the processing

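Leaving out a sample was not possible, since each list is pooled over its samples. No paired analysis was possible because the pooled lists carry no replicate. Motifs at peak summits, and their 100 bp window, were not run without a genome sequence. Joining peaks within 500 bp left the 12 strongest regions of each list in that list alone. With peaks of at least 500 bp, a setting chosen after seeing the data, Gfod1 dropped out.

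Region and promoter counts moved with the settings, and the cause was not tested beyond the shorter lists that a threshold makes. With lists of equal length, wild-type-only regions numbered 9452 and promoters 152, and the double-mutant share of one-list regions turned to 62.5%. With −log10 q of at least 5, one-list regions were 8048 and 2254, promoters 2676 and 84, and the share 78.1%. With fold enrichment of at least 5, regions were 4133 and 4049 and the share 50.5%. With coverage of at least 0.5 the share was 55.8%. With peaks within 500 bp joined, 9408 regions were double-mutant-only and the share was 43.1%. With peaks of at least 500 bp, wild-type-only regions were 1650, promoters 2929 and 59, and the share 88.3%.

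The double-mutant share of one-list regions in the gene lists moved as follows, in the order equal length, −log10 q of at least 5, fold of at least 5 and peaks of at least 500 bp, where the share over all regions was 66.6%, 81.1%, 55.7% and 90.1%. STAT5 targets gave 87.3%, 100%, 100% and 100%, and stem cell factor genes 55.9%, 60%, 29.5% and 72.6%, and 52.3% with coverage of at least 0.5. Interferon genes gave 88.5%, 83.3% and 92.9% in the last 3 and ubiquitous genes 100% in the second and the last. T and NK cell genes gave 61.1%, 62.5% and 60% in the first, second and last. Erythroid genes gave 72.7% with peaks of at least 500 bp and 11.1% with peaks within 500 bp joined. None of these lists crossed the share over all regions. H3K4me1 covering at least 0.5 of the region lowered the distal shares to 51.3% and 27.8% in double-mutant-only regions and to 30.4% and 23.1% in wild-type-only regions.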
